A study of Mus musculus with 5 samples.

Results

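The genes described here carry names of neuronal families: the Neurod transcription factors, the stathmins (Stmn), the numbered synaptotagmins (Syt), GABA and glutamate receptor subunits (Gabr, Gria, Grik, Grin), potassium channel subunits (Kcn), the collapsin response mediators (Dpysl), the neurexins (Nrxn), the contactins (Cntn) and the semaphorins (Sema), together with Dcx, Tubb3, Gap43, Snap25 and the neurofilament genes. They were chosen by the symbol of the array's platform annotation alone, on probes with 1 symbol, leaving out Grina and the Cntnap genes. Of 9050 named genes, 55 met this rule, on 73 probes, and 51 had a value on all 5 arrays. No Gria, Grik or Nrxn gene, and neither Nefl nor Nefh, was among them.

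Macrophages grown from the bone marrow of C3H/HeJ mice in human CSF-1, a growth factor for these cells, were set against a common reference, total RNA of whole C57BL6/J embryos of 17.5 days. C3H/HeJ mice carry a mutation of Tlr4, the receptor for lipopolysaccharide (LPS), which leaves their cells hyporesponsive to it. The macrophages had been left unexposed (0 h) or exposed to 10 µg per ml LPS of S. minnesota for 0.5, 2, 7 or 21 h, and each of these 5 groups was measured on 1 two-colour cDNA array. No group had a replicate and no difference was tested, so every value below describes these arrays. The 2 RNAs also differ in strain, so strain and cell source cannot be told apart in a ratio.

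A neuron that extends an axon builds a growth cone, in which tubulin-binding proteins such as doublecortin and the stathmins, and membrane proteins such as GAP-43, are abundant. Mature neurons add the machinery of synaptic release, transmitter receptors and potassium channels, which set firing. An embryo late in gestation holds brain, spinal cord and peripheral ganglia among its other organs, whereas a macrophage culture holds none of them. Several of the families have members outside the nervous system as well: stathmin 1 is made by dividing cells, some semaphorins by leukocytes, and potassium channels by nearly every tissue.

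Each value is the deposited log ratio of macrophage over embryo, centred so that the median gene of an array stands at 0 and averaged over the probes of a gene. The log base and the numerator are not stated in the sources used here. Base 10 was taken because the beta globin gene Hbb-b1 averaged -1.87, which is 74.1-fold in base 10 and 3.66-fold in base 2. The direction is likely only: 5 of 7 macrophage genes were at least 2-fold higher on each of the 0, 2, 7 and 21 h arrays, and 7 of 8 liver genes at least 2-fold lower. The medians of these lists were 1.17 and -0.89. The remaining 2 of the 7 macrophage genes, Cd68 and Tyrobp, lay below 0 on all 5 arrays. With the direction turned, every lower value would read as higher: Gap43, the lowest member, would rank 44 from the highest of 8452 genes, and 60.8% of members, beside 48.2% of all genes, would have a mean above 0. A gene was called lower or higher when its ratio reached 2-fold, a log10 ratio of 0.301. The 0.5 h array stood apart, with a correlation of 0.51 across probes to the mean of the other 4 arrays. Means are therefore given over the 0, 2, 7 and 21 h arrays, with the 0.5 h value beside them, and their SD runs over arrays of different times and is no replicate error.

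The 5 members of lowest mean were genes of axon growth, and the other 4 genes of that group stood near 0. On all of the 0, 2, 7 and 21 h arrays, 5 of 51 members were at least 2-fold lower in macrophages than in embryo, beside 4.76% of all 8452 genes. These were Gap43, Stmn3, Dpysl3, Dcx and Stmn2. On the same arrays 1 of 51 was at least 2-fold higher, Kcnab2, beside 3.38% of all genes. The remaining 45 members passed neither rule. In bulk RNA, fewer cells of a type and less RNA per cell cannot be told apart, so a low ratio does not say how many embryonic cells made the transcript.

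Promoter sequences of RefSeq (build GRCm38.p6) were at hand for 38 of the 55 members, in 64 windows of 300 bases that run from 250 bases before a transcription start to 50 after it. Windows of 5 members are shown, from low to high mean. Stmn3, Dcx and Syt1 were among the 6 members of lowest mean, Tubb3 is a classical neuronal marker that stood near 0, and Kcnab2 was the highest. Gap43, the lowest member, and Dpysl3 and Stmn2, also among the lowest, had no window at hand. Capitals mark the letters CAGCACC or GGACAG on either strand, the left and right parts of RE1, the element bound by the neuronal silencer REST, and TATAAA on the written strand, the TATA box. None of the matches overlap. Stmn3 is at chr2:181314451-181314750, minus strand, Dcx at chrX:143933170-143933469, minus strand, Syt1 at chr10:109010926-109011225, minus strand, Tubb3 at chr8:123411303-123411602, plus strand, and Kcnab2 at chr4:152452896-152453195, minus strand. Each is written 5′ to 3′ along its gene, and where a gene has several windows the one with most matches was taken.
Stmn3: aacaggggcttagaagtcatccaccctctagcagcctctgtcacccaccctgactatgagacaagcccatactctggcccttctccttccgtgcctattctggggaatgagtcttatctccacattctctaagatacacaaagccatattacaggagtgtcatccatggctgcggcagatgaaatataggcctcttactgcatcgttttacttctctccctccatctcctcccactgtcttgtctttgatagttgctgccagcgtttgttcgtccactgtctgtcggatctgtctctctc
Dcx: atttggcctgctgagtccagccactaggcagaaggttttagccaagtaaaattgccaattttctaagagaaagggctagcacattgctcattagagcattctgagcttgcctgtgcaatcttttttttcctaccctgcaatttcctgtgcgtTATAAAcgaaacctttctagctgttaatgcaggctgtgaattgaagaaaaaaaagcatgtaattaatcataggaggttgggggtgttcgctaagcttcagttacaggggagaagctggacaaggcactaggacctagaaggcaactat
Syt1: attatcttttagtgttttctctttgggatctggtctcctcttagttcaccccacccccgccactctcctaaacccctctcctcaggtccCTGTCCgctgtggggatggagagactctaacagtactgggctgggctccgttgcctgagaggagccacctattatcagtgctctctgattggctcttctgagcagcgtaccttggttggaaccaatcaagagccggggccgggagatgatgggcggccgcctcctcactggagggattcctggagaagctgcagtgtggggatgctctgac
Tubb3: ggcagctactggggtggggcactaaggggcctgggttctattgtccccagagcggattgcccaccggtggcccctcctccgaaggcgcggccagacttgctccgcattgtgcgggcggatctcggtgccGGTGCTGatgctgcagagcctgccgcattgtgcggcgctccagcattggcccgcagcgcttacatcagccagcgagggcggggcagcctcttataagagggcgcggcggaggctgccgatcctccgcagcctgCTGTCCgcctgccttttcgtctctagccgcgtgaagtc
Kcnab2: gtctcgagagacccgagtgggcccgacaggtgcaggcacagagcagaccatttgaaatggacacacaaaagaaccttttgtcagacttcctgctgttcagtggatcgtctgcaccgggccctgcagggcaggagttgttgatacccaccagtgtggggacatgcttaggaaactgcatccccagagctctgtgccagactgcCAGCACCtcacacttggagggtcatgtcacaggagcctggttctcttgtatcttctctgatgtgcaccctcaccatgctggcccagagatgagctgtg
Of these, Stmn3 held none of the 3 motifs in this window. The Dcx window held TATAAA 98 bases before the start, Syt1 GGACAG on the other strand 161 bases before it, and Kcnab2 CAGCACC 48 bases before it. Tubb3 held CAGCACC 121 bases before the start and GGACAG 13 bases after it, both on the other strand. Over all member windows CAGCACC was found in 9.38%, beside 7.14% of 32851 windows of all genes. GGACAG was found in 26.6% of member windows and 22.2% of all, and TATAAA in 3.12% and 8.32%. Each window of a gene is counted apart, and the 2 member windows with TATAAA were both of Dcx. A match is a match of letters only.

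Gap43, which encodes the growth cone protein GAP-43, had log10 ratios of -1.17, -1.63, -1.37, -0.91 and -1.01 on the 0, 0.5, 2, 7 and 21 h arrays, from 1 probe. All 5 arrays were low. Its mean of -1.11 ± 0.20 (SD over 4 arrays) is a 13.0-fold lower level in macrophages (2.16-fold if the base were 2), and it ranked 44 from the lowest of the 8452 genes. Stmn3, a neuronal stathmin that destabilises microtubules, had -0.89, -1.15, -1.07, -0.80 and -0.92 in the same order of times, from 1 probe. It too was low on every array, with the smallest spread of the 3 lowest members (mean -0.92 ± 0.11, 8.30-fold lower). Dpysl3, a collapsin response mediator that carries semaphorin signals to the cytoskeleton, had -0.63, -0.97, -0.75, -0.88 and -0.62 in that order (mean -0.72 ± 0.12, 5.29-fold lower). It also rested on 1 probe.

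Dcx, the doublecortin of migrating and newly formed neurons and the marker given for these genes, had -0.56, -1.01, -0.70 and -0.47 on the 0, 2, 7 and 21 h arrays. On the 0.5 h array its only probe read 0.81, in the opposite direction. The mean without that array was -0.69 ± 0.24 (4.86-fold lower), and with it -0.39. Among the 400 probes with numbers next to that of Dcx, the 0.5 h array had a correlation of 0.18 with the mean of the other arrays, beside 0.51 over all probes and 0.71 around Gap43. The same correlation was 0.17 around a Neurod4 probe, 0.36 around Kcnk10, 0.57 around Kcne1l, 0.74 around Kcnip3 and 0.83 around a Stmn2 probe. These probes too were below 0 at 0 h and at least 2-fold higher than embryo at 0.5 h. Whether the neighbouring probes bear on the Dcx reading was not tested. With a running median over neighbouring probe numbers removed, the difference of the 0.5 h from the 0 h array was 1.36 for Dcx, beside 1.37 without that step.

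Stmn2, which encodes the growth cone stathmin SCG10, was measured on 5 probes, 4 of them with a value on all arrays. The 4-probe mean was -0.63, -0.49, -0.72, -0.48 and -0.56 on the 0, 0.5, 2, 7 and 21 h arrays (mean -0.60 ± 0.10, 3.95-fold lower). The probes lay apart, with means of -0.90, -0.71, -0.52 and -0.26 and an SD over probes of 0.28. Every one of them was below 0 on the 0, 2, 7 and 21 h arrays. At 0.5 h they read -1.38, -1.02, 0.48 and -0.05, so 1 probe was high there while a pair of them lay below -1. The fifth probe, without a value at 7 h, read -0.04, -0.27, -0.34 and -0.19 on the 0, 0.5, 2 and 21 h arrays.

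The other members of the cytoskeletal group stood near 0. Stmn1, the stathmin of dividing cells, had 4 probes with means between -0.17 and -0.03 (gene mean -0.11 ± 0.04), which makes its probes the most alike of all members with several. The 15 measured proliferation genes had a median of 0.19, with Ccna2 at -0.19 and Mcm2 at -0.15 as the lowest and Aurkb and Pcna at 0.43 as the highest. Tubb3, the neuronal class III beta tubulin, had gene ratios of -0.09, -0.07, -0.03, -0.03 and -0.24 on the 0, 0.5, 2, 7 and 21 h arrays. Its 2 probes had means of -0.22 and 0.03, and the lower probe held a reading of -0.50 at 21 h. Nefm, the medium neurofilament, averaged -0.03 ± 0.06. Dpysl4 averaged 0.04 ± 0.10, with 1 probe at -0.16 and the other at 0.24. Counted together, 5 of the 9 measured genes of axon growth and cytoskeleton were lower on the 4 arrays, beside 4.76% of all genes. None of the 9 was higher, beside 3.38% of all genes. The median of the 9 was -0.60, beside 0.01 for all genes. The same 5 genes were lower, and the median stayed between -0.63 and -0.53, under each of 6 other ways to scale, filter and join the probes. Much of this was fixed in advance, since Gap43, Stmn3, Dpysl3 and Dcx each rest on 1 probe. For them, leaving out the centring, taking the median probe or changing the filter only shifts each array by a constant. Those settings could hardly change their calls. The calls do depend on the log base, which is not stated. Read as base 2, no member was 2-fold lower at 7 h, so none of the 5 would be lower on all 4 arrays.

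**Figure D1:**
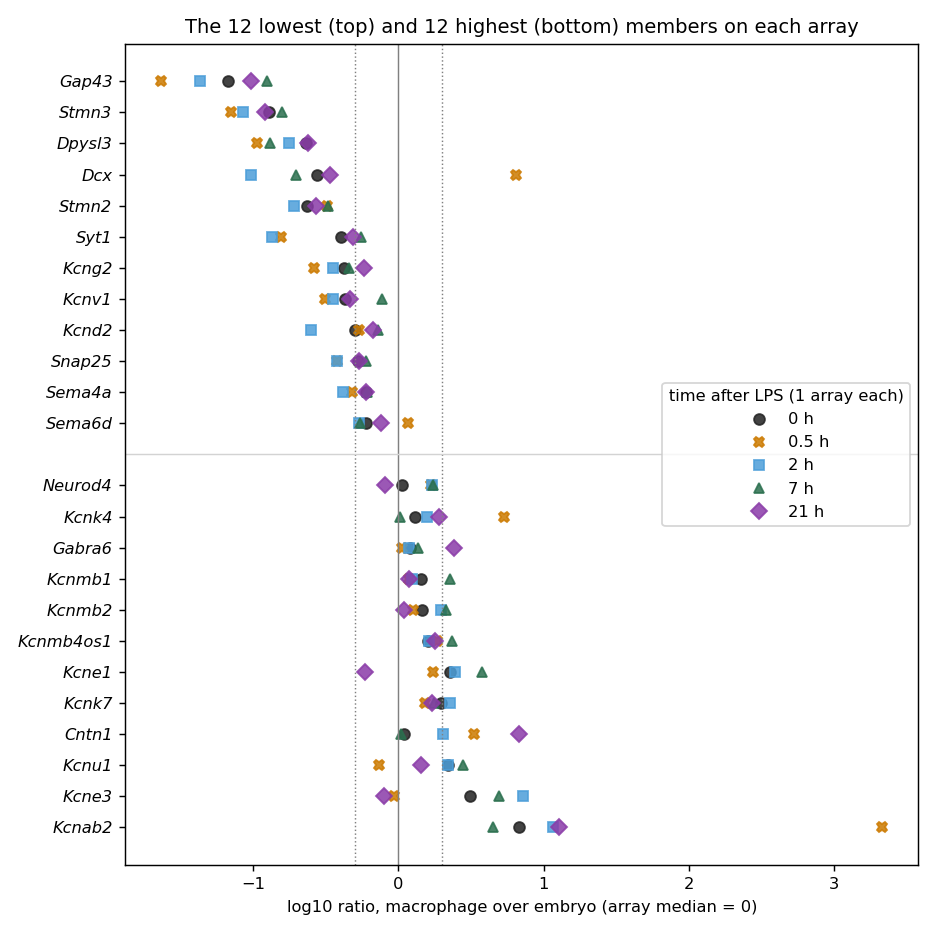
Log10 ratios of macrophage over embryo (horizontal axis) for the 12 members of lowest mean and the 12 of highest mean, 1 point per array and time; dotted lines mark 2-fold. Gap43 lies between -1.63 and -0.91 on all 5 arrays, whereas the 0.5 h points of Dcx (0.81) and Kcnab2 (3.33) lie far right of their other points.

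Of the 3 measured genes of synaptic release none was lower on all 4 arrays (4.76% of all genes) or higher (3.38%). After quantile normalization Syt1 was lower on all 4. Syt1, the calcium sensor of fast transmitter release, had -0.40, -0.81, -0.87, -0.26 and -0.31 on the 0, 0.5, 2, 7 and 21 h arrays. All were below 0, but the 7 h value missed the 2-fold rule, and its spread was wide for its mean (-0.46 ± 0.28). Snap25, the membrane-anchoring SNARE protein of the synaptic vesicle cycle, averaged -0.30 ± 0.09 on 2 probes that differed: 1 read between -0.75 and -0.41 on the 5 arrays, the other between -0.15 and -0.03. Syt7, a high-affinity calcium sensor found in many secretory cells, averaged 0.05 ± 0.10 and read 0.45 at 0.5 h. The median of the 3 was -0.30. Syt8 had no value at 21 h and was between -0.49 and 0.16 on the others.

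Transmitter receptors were few. The NMDA receptor subunits Grin2b (mean -0.18 ± 0.10) and Grin2c (-0.14 ± 0.06) were below 0 on all 5 arrays, and of these 10 values only that of Grin2b at 2 h (-0.30) reached the 2-fold rule. Gabra6, a GABA-A receptor subunit of cerebellar granule cells, had 0.08, 0.03, 0.07, 0.14 and 0.39 on the 0, 0.5, 2, 7 and 21 h arrays, so that the 21 h array alone passed 2-fold. Gabrd, without a value at 0.5 h, ranged from -0.45 at 7 h to 0.81 at 2 h on 1 probe.

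The Neurod transcription factors, which drive neuronal differentiation, showed no low mean. Neurod1 averaged 0.03 ± 0.08, Neurod2 0.10 ± 0.10 and Neurod4 0.10 ± 0.16, so the median of the 3 was 0.10. For Neurod1 the means of 4 probes ran from -0.21 to 0.32. The 2 probes of Neurod4 disagreed in sign, at -0.29 and 0.50, a wider gap than in any other member.

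Guidance genes lay slightly below the median gene. Of 8 measured semaphorins and contactins 6 had a mean below 0, beside 48.2% of all genes, with a family median of -0.09. None was 2-fold lower on all of the 4 arrays (4.76% of all genes) or 2-fold higher (3.38%). In a group of 8, none is close to those shares. Sema4a, a transmembrane semaphorin also made by cells of the immune system, was the lowest (-0.26 ± 0.08), on 1 probe with a mean of -0.52 and another at -0.0037. Sema6d averaged -0.22 ± 0.07 and Sema3c, a secreted semaphorin, -0.22 ± 0.07. Sema4d, known as CD100 on leukocytes, averaged 0.02 ± 0.09 and ranged from -0.13 to 0.10 on the 5 arrays. Cntn1, a contactin of axons, was the highest, with 0.04, 0.52, 0.31, 0.02 and 0.83 on the 0, 0.5, 2, 7 and 21 h arrays, a spread wider than its mean (0.30 ± 0.38).

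Of the receptors that read semaphorins, 7 of the 14 listed were measured, with a median of 0.05. Nrp2 (0.69 ± 0.26) was higher than embryo on each of the 4 arrays, and Nrp1 averaged 0.30 ± 0.05 on 4 probes. Plxnc1 (-0.54 ± 0.14) was lower on those 4 and read 0.31 at 0.5 h, and Plxnb1 averaged -0.35 ± 0.18.

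Potassium channel subunits were the most numerous members, and they spread to both sides of 0. Of 12 measured pore-forming subunits 8 had a mean below 0, beside 48.2% of all genes, with a median of -0.10. None was 2-fold lower on all 4 arrays (4.76% of all genes) or 2-fold higher (3.38%). In a group of 12, none is close to those shares. The lowest were Kcng2 (-0.35 ± 0.09), a modifier subunit that is silent by itself, Kcnv1 (-0.32 ± 0.14), another silent subunit, and Kcnd2 (-0.30 ± 0.21), which carries the transient A-type current of neurons. Kcng2 had -0.37, -0.58, -0.45, -0.34 and -0.23 on the 0, 0.5, 2, 7 and 21 h arrays, short of 2-fold at 21 h alone. A second Kcnv1 probe, without a value at 0.5 h, averaged 0.25, so the sign of that gene depends on the probe. The calcium-activated channel of blood cells, Kcnn4, averaged -0.13 ± 0.13. At the upper end were Kcnu1 (0.32 ± 0.12), a channel of sperm, Kcnk7 (0.28 ± 0.06) and Kcnk4 (0.15 ± 0.11).

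Auxiliary potassium channel subunits held the highest member. Kcnab2, the cytoplasmic beta 2 subunit of Kv1 channels, read 0.83, 3.33, 1.07, 0.65 and 1.11 on the 0, 0.5, 2, 7 and 21 h arrays, from 1 probe. It was at least 2-fold higher in macrophages on every array (mean 0.91 ± 0.21, 8.20-fold), and the value at 0.5 h was the second highest of all 8452 genes there. Kcne3, a small transmembrane subunit, had 0.49, -0.03, 0.86, 0.69 and -0.10 on the 0, 0.5, 2, 7 and 21 h arrays (mean 0.49 ± 0.42), high on 3 arrays and near 0 on the remaining pair. Kcne1 (0.27 ± 0.35) was between 0.36 and 0.58 at 0, 2 and 7 h and -0.23 at 21 h. Kcnmb2 averaged 0.21 ± 0.13, Kcnmb1 0.17 ± 0.13 and Kcnip2, a cytoplasmic partner of Kv4 channels, -0.15 ± 0.14, the lowest. The median of the 11 measured was 0.03. A pair of non-coding transcripts that carry potassium channel names, Kcnmb4os1 (0.26 ± 0.08) and Kcnd3os (0.09 ± 0.05), had means above 0. Kcna7 and Kcnab1, without a value at 0.5 h, lay between -0.09 and 0.28 on the other arrays.

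**Figure D2:**
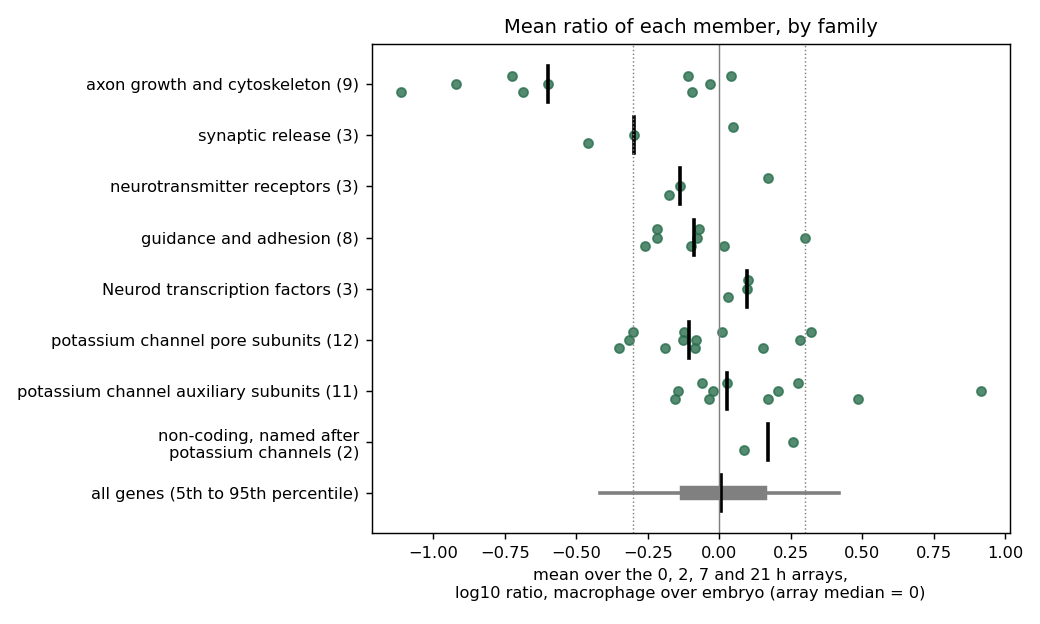
Mean log10 ratio over the 0, 2, 7 and 21 h arrays (horizontal axis) for each of the 51 measured members, grouped by family with the number of genes in brackets; black bars are medians, and the grey box and line give the 25th to 75th and 5th to 95th percentile of all 8452 genes. Axon growth genes have a median of -0.60, and the potassium channel families have medians of -0.10 and 0.03.

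Array by array, the members at least 2-fold lower than embryo numbered 8 of 51 at 0 h (8.90% of all genes), 12 at 0.5 h (17.0% of all), 12 at 2 h (12.9% of all), 6 at 7 h (8.02% of all) and 9 at 21 h (9.12% of all). Those at least 2-fold higher numbered 4 at 0 h (8.99% of all genes), 8 at 0.5 h (23.4% of all), 6 at 2 h (13.4% of all), 7 at 7 h (12.6% of all) and 3 at 21 h (9.67% of all). As shares of the 51, the lower calls came to 15.7%, 23.5%, 23.5%, 11.8% and 17.6% in that order of times. The median member stood at -0.088, -0.054, -0.060, -0.085 and -0.087 on the 0, 0.5, 2, 7 and 21 h arrays. Without centring, the median at 0.5 h was 0.0058, the 1 array where its sign turned. Over the 4 arrays 31 of 51 members had a mean below 0 (60.8%), beside 48.2% of all genes. On all 5 arrays 18 members were below 0 (35.3%), beside 24% of all genes.

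Neuronal genes outside the chosen families were read from a list of 35, of which 19 were measured. Their median was -0.09, and 3 of the 19 were lower on all 4 arrays, beside 4.76% of all genes. These were Uchl1, the abundant ubiquitin hydrolase of neurons (-1.13 ± 0.24), Rtn1, a neuronal reticulon (-0.59 ± 0.10), and Map2, the dendritic microtubule protein (-0.50 ± 0.08). None of the 19 was higher, beside 3.38% of all genes. Nsg1 (0.27 ± 0.34) and Prph, a neurofilament-type protein of peripheral nerves (0.21 ± 0.28), had the highest means. Progenitor genes, 6 of 11 measured, had a median of -0.05, with Nes at -0.24 ± 0.02 and Fabp7 at -0.16 ± 0.05 as the lowest and Vim, which macrophages also express, at 0.57 ± 0.04 and Neurog2 at 0.33 ± 0.07 as the highest. Glial genes had a median of -0.03, and of the 5 measured Apoe, also a macrophage gene, was the lowest (-0.48 ± 0.07) and S100b next (-0.06 ± 0.17), while Olig1 (0.24 ± 0.14) and Aldoc (-0.01 ± 0.10) were the highest. For other embryonic tissues, values ran among 8 liver genes from Alb (-1.74 ± 0.19) and Afp (-1.23 ± 0.31) to Ahsg (-0.53 ± 0.16) and Apoa2 (-0.15 ± 0.11). The 5 erythroid genes had a median of -0.60 and ran from Hbb-b1 and Hba-a1 (-1.45 ± 0.10) to Hbb-y (-0.27 ± 0.17) and Slc4a1 (0.17 ± 0.08).

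Members with several probes show how far a single probe can be trusted. Of the 51 measured members 41 rested on 1 probe and 10 on several. The SD over the probe means of a gene ran from 0.06 (Stmn1, 4 probes) to 0.56 (Neurod4, 2 probes), and it exceeded the SD over the 4 arrays in each of the 10. For Neurod1, Neurod2, Neurod4, Dpysl4 and Tubb3 the probes fell on both sides of 0.

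**Figure D3:**
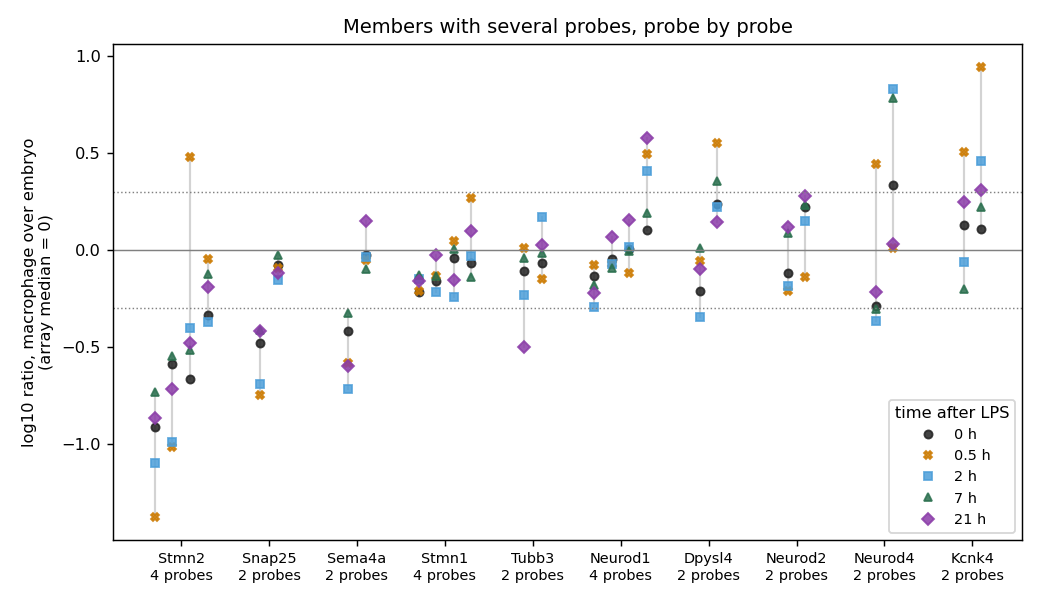
Log10 ratios of macrophage over embryo (vertical axis) for each complete probe of the 10 members with several; a grey line joins the 5 arrays of 1 probe, and dotted lines mark 2-fold. The Stmn2 probes have means from -0.90 to -0.26, and the pair for Neurod4 stands at -0.29 and 0.50.

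Differences after LPS were taken against the unexposed macrophages. All 4 times share the 0 h array, so a chance value there enters each difference. The median difference of the 51 members from 0 h was 0.026, 0.0044, 0.058 and 0.042 on the 0.5, 2, 7 and 21 h arrays, beside -0.014, -0.012, 0.022 and 0.0030 for all genes. At 2 h, 1 of 51 members was higher by 2-fold or more (4.24% of all genes) and 3 were lower (2.58%). Syt1 had -0.87 at 2 h, against -0.40 at 0 h, a difference of -0.47. Dcx had -1.01 at 2 h, against -0.56 at 0 h (-0.45), and Kcnd2 had -0.60, against -0.30 (-0.31). Kcne3 had 0.86 at 2 h, against 0.49 at 0 h (0.37). With the arrays scaled to a common spread or quantile normalized, none of these 4 reached 2-fold (Syt1 was at -0.29 under both). At 7 h no member reached 2-fold upwards (3.35% of all genes) or downwards (1.40%), a count over single arrays and not the outcome of a test.

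At 21 h, 3 members were higher (4.33% of all genes) and 2 lower (4.69%). Cntn1 had 0.83 at 21 h, against 0.04 at 0 h, a difference of 0.79 that stayed between 0.75 and 1.18 under the other settings. Gabra6 (0.39 at 21 h, against 0.08 at 0 h) and Kcnip3 (0.07, against -0.24) were each higher by 0.31, just past the rule, and each was at 0.26 with a running median over neighbouring probes removed. Kcne1 had -0.23 at 21 h, against 0.36 at 0 h, and Kcne3 -0.10, against 0.49, so each was lower by 0.59. Among the 400 probes numbered next to the Kcne3 probe the median difference at 21 h was -0.07, and for Kcne1 -0.0094. The 5 axon growth genes low on the 4 arrays were within 2-fold of 0 h at 7 and 21 h, with differences from -0.25 (Dpysl3, 7 h) to 0.26 (Gap43, 7 h).

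At 0.5 h, 8 members were higher (19.9% of all genes) and 5 lower (10.6%). Kcnk10, a two-pore channel, had 2.45 at 0.5 h, against -0.06 at 0 h, and Kcnab2 3.33, against 0.83, differences of 2.51 and 2.50. Quantile normalization left 1.41 for Kcnk10 and 0.92 for Kcnab2, and scaling to a common spread 1.40 and 0.998. Dcx had 0.81, against -0.56, and Kcnip3 0.63, against -0.24. Kcnk4, Cntn1, Syt7 and Kcne1l were higher by 0.61, 0.48, 0.43 and 0.43, and none of these 4 reached 2-fold after quantile normalization. Neighbouring probes moved with 2 of these: the median difference of 400 neighbours at 0.5 h was 0.58 around Kcnk10, and 0.34 and 0.47 around the probes of Kcnk4. Around Kcnab2 it was 0.06, around Dcx 0.04 and around Kcnip3 0.01. The part of such stretches in the Kcnk10 and Kcnk4 values was not tested beyond the running median, under which Kcnk10 was at 1.93 and Kcnk4 at 0.23. Kcne3 (-0.52), Kcnu1 (-0.47), Gap43 (-0.46), Syt1 (-0.41) and Dpysl3 (-0.34) were the 5 lower. Scaled to a common spread, Gap43 was higher by 0.27 and Dpysl3 by 0.10, so the direction of these 2 at 0.5 h depends on the scaling. Syt1 kept its direction but not the 2-fold, at -0.05 with a common spread and -0.21 after quantile normalization.

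**Figure D4:**
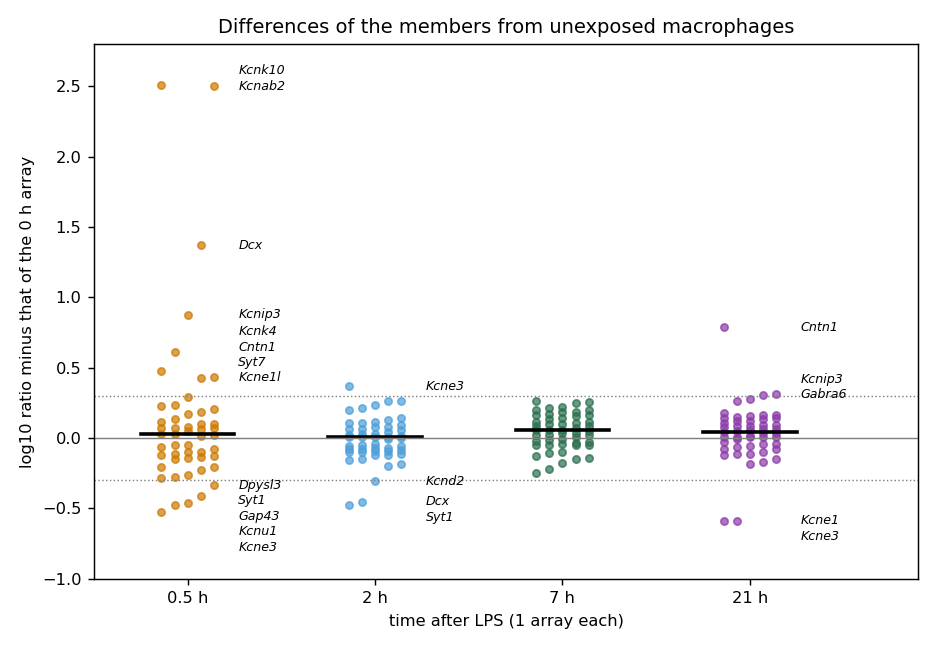
Difference of each of the 51 measured members from the 0 h array (vertical axis, log10 ratio) at each time after LPS; black bars are medians, dotted lines mark 2-fold, and the members past it are named beside the points, stacked in order of value. At 7 h no member is named, and at 0.5 h Kcnk10 and Kcnab2 lie near 2.5.

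**Figure D5:**
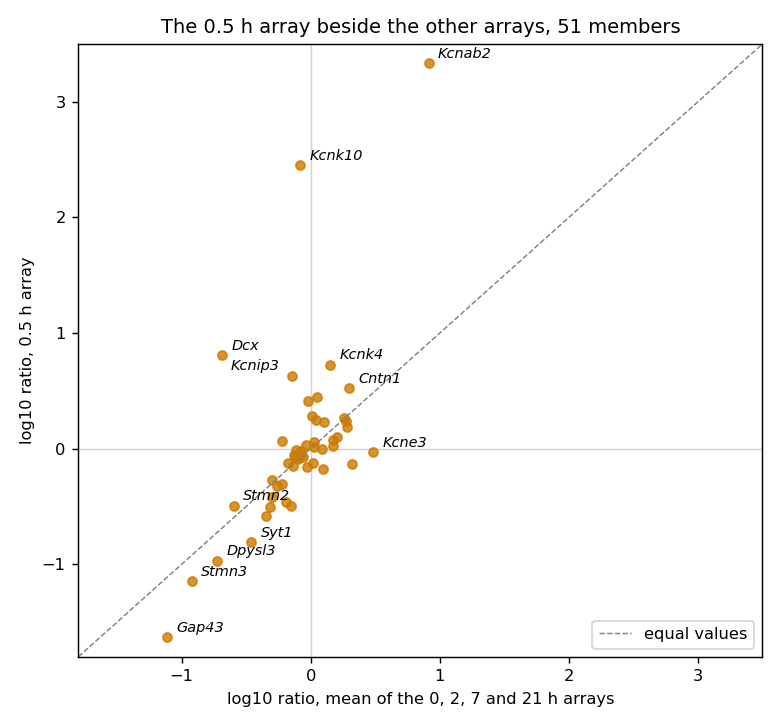
Log10 ratio on the 0.5 h array (vertical axis) against the mean of the 0, 2, 7 and 21 h arrays (horizontal axis), 1 point per measured member; the dashed line marks equal values. Gap43, Stmn3, Dpysl3 and Syt1 lie below the line, Stmn2 is at -0.49 on the 0.5 h array and -0.60 on the others, and Dcx, Kcnk10 and Kcnab2 lie far above it.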

How the data were processed

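Bone marrow macrophages and whole embryo RNA were compared on 5 two-colour cDNA arrays, 1 per time after LPS. The labels name indirect amino-allyl labelling and a Cy3 dye. The deposited values are log10 ratios, as read here: neither their base and numerator nor how the authors normalized them is stated in the sources used here, and signal over background is unknown. The number of arrays limits the precision. The medians subtracted from the arrays were 0.0191, 0.0597, 0.0277, -0.0030 and 0.0215 at 0, 0.5, 2, 7 and 21 h.

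Of 19828 probes 14759 had 1 symbol in GEO's platform annotation, 170 carried several and 4899 carried none. Of those with 1 symbol, 14628 matched RefSeq (GRCm38.p6) by Entrez identifier. Probes with a value on all 5 arrays were averaged per gene (8452 genes). Each time had 1 array, so differences between times had no replicates to test. Arrays of different times were not taken as replicates of each other, and macrophage over embryo was not tested. Named genes were the 12 lowest and 12 highest members by mean, the extremes of each family, up to 3 differences per time and direction, members with 3 or more probes, the single genes of the rule, and the 2 lowest and 2 highest of other lists. A few others were named for contrast after their values were seen. Members, families, lists and alternatives were chosen with earlier results of these data known. Averaging over probes and centring were tested on simulated data, and the 0.5 h array was not required to pass. Python 3.11.15, numpy 2.4.6, pandas 2.3.3 and matplotlib 3.10.9 were used.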

Additional observations from a re-analysis of the deposited data

Results flagged for a closer look

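Among the 51 members with a value on all 5 arrays, Dcx alone passed 2-fold in opposite directions on different arrays. The log10 ratio of Dcx was 0.809 on the 0.5 h array and -1.01 on the 2 h array. The difference between these arrays was not tested. The remaining arrays read -0.56, -0.70 and -0.47 for Dcx (0, 7 and 21 h). Dcx has 1 probe, and it ranked 668 from the highest of 8452 genes at 0.5 h. Gabrd, which lacks a value at 0.5 h, also passed 2-fold in both directions. It read 0.81 at 2 h and -0.45 at 7 h, which was not tested either.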

How the results depend on the processing

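No paired analysis was possible because each group held 1 array. Shares of all genes per array were not counted under the settings below, so these member counts have no background beside them. Counts that changed little under a setting are not all listed. With a 1.5-fold rule, 20, 13, 17, 13 and 14 members were lower than embryo at 0, 0.5, 2, 7 and 21 h. At 2-fold the numbers were 8, 12, 12, 6 and 9. Higher than embryo were 6, 14, 10, 10 and 8 in the same order, beside 4, 8, 6, 7 and 3 at 2-fold. Against 0 h, 13, 6, 9 and 5 members were then higher at 0.5, 2, 7 and 21 h (8, 1, 0 and 3 at 2-fold), and 11, 5 and 3 lower at 0.5, 2 and 7 h (5, 3 and 0). Read as base 2, members lower than embryo numbered 1, 2, 3, 0 and 1 at 0, 0.5, 2, 7 and 21 h (8, 12, 12, 6 and 9 in base 10), and higher 0, 2, 1, 0 and 1 (4, 8, 6, 7 and 3). Against 0 h, 3 stayed past the rule upwards at 0.5 h and 0 at 2 and 21 h, and 0 downwards at 0.5, 2 and 21 h. Scaled to one median absolute deviation, 5 were lower and 5 higher than embryo at 0.5 h and 3 higher at 2 h, while against 0 h 5 were higher and 2 lower at 0.5 h, 0 and 0 at 2 h, and the median at 0.5 h was -0.030. Quantile normalization gave 10 lower than embryo at 7 h and 5 higher at 21 h. Against 0 h it gave 0 higher and 0 lower at 2 h, 3 lower at 0.5 h, 2 lower at 7 h and 5 higher at 21 h, with medians of -0.11, -0.037 and -0.10 at 0, 0.5 and 7 h. With genes that had a value on the arrays concerned, 2 were higher at 2 h and 1 lower at 7 h than at 0 h, and the medians were -0.063, -0.031, -0.051 and -0.066 at 0, 2, 7 and 21 h. With a running median over 400 probe numbers removed, 4 were higher than embryo at 7 h and 1 higher than 0 h at 21 h, with medians of -0.11, -0.031, -0.034 and -0.033 at 0, 0.5, 2 and 7 h. Without centring the medians were -0.069, 0.0058, -0.033 and -0.065 at 0, 0.5, 2 and 21 h. Against the mean of the other arrays except 0.5 h, 1 member was higher and 2 lower at 7 h, and 1 higher at 21 h. The cause of these shifts was not tested, beyond what the size rules set by construction. For 35 named genes, 376 of 385 alternative means moved by less than the SD over 4 arrays, 9 by more, and 0 turned sign past the size rule. Much of this was fixed in advance. A mean that leaves out 1 of the 4 arrays cannot move by more than that SD. For a gene on 1 probe, leaving out the centring or taking the median probe only shifts the mean by a constant. The count therefore says little about how stable the means are. Signal over background is unknown, so a ratio near 0 may stand for a transcript not measured in either RNA.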
